A study of Homo sapiens with 8 samples.

Results

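KLE is a human cell line from an endometrial adenocarcinoma, and its transcriptome was set against those of 7 other human cancer lines, so that 1 of the 8 libraries was KLE. The 7 other lines were HEC59 (endometrial carcinoma), COV318 (serous carcinoma of the ovary), H522 (non-small cell lung cancer), H661 (large cell lung cancer), H146 (small cell lung cancer), H716 (adenocarcinoma of the cecum) and 1321N1 (astrocytoma). KLE was taken by its label and its column of FPKM values (fragments mapped to a gene, scaled by its length and by the depth of the library), and no measured value chose it. Every line had been chosen by the study as a cancer line that expresses the receptor ERBB4. No line was treated before its RNA was taken, after 48 hours in plates. The study set lines that respond to ibrutinib, a kinase inhibitor, against lines that do not. The labels do not say which lines are which, so response is not analysed here. Each line is a culture from a single tumour with 1 library, so no value of KLE has a replicate check, and a difference from the other lines is a difference between tumours as well as between tissues.

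The endometrium is lined by a simple glandular epithelium that derives from the Mullerian duct. Such epithelia build their filaments from the paired keratins KRT8 and KRT18, with KRT19 and KRT7, while stratified squamous epithelia use other keratins and seal their surface with a cross-linked envelope of proteins such as filaggrin. Endometrial carcinomas can show areas of squamous differentiation, and their cells can carry epithelial and mesenchymal genes side by side. The ERBB receptors are the family of EGFR. EGFR, ERBB3 and ERBB4 bind ligands of the EGF and neuregulin families, and ERBB2 acts as their partner.

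Of 58202 genes, 19207 reached 1 FPKM in some line, and 13954 of them were protein-coding. Levels are given as FPKM. A margin is the distance on log2(FPKM + 1) between KLE and the nearest of the other 7 lines, above the highest or below the lowest. This scale understates the distance of genes at low levels. KLE had 12985 genes at 1 FPKM or more, against 12205 to 13300 in the other 7 lines. Depth in reads is unknown. By a rough estimate from the steps between the lowest values, KLE was the shallowest library. The others ranged from 1.16 times its depth in COV318 to 2.69 times in 1321N1. Few of the genes used lay close to the estimated ratio, from 10.3% for 1321N1 to 24.4% for H716. KLE also had the fewest protein-coding genes listed at 0, with 671 against 733 to 1102 in the others. Its rank in depth is therefore uncertain. The median protein-coding gene in KLE lay 0.00267 (log2) above the median of the other 7 lines.

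KLE exceeded every other line by a margin of 1 or more for 341 protein-coding genes, which was 2.44% of those past the filter. It lay below every other line by such a margin for 43, or 0.308%, and for 77 with HEC59 left out. Of the 341 genes above, 86 had a margin of at least 2 and 40 a margin of at least 3. Of these 341, 96 were at 1 FPKM or more in KLE alone, and so had entered the set through KLE. The genes on either side of the limit had margins of 1.001 and 0.995. The 7 other lines, each set against its own 7 companions in the same way, had 197 genes above at the fewest, in COV318, and the most in H146, and 29 (COV318) to 383 (H146) below. The 341 and 43 genes of KLE lay within the range of the other lines. Counting any margin, KLE was the highest line for 10.8% of protein-coding genes and the lowest for 8.71%.

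The gene farthest above the other lines was KRT6A, a keratin of activated and squamous epithelium, at 215 FPKM in KLE. It was at 0.487 in H522, 0.0438 in 1321N1, 0.0200 in COV318 and 0.0172 in HEC59, and was listed at 0 in H661, H146 and H716, which gave a margin of 7.18. KLE was thus the single line with KRT6A at 1 FPKM or more. Its near-identical relatives KRT6B and KRT6C were at 0.0940 and 0.141 in KLE, and the sources used here do not tell how reads shared among these genes were divided.

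**Figure D1:**
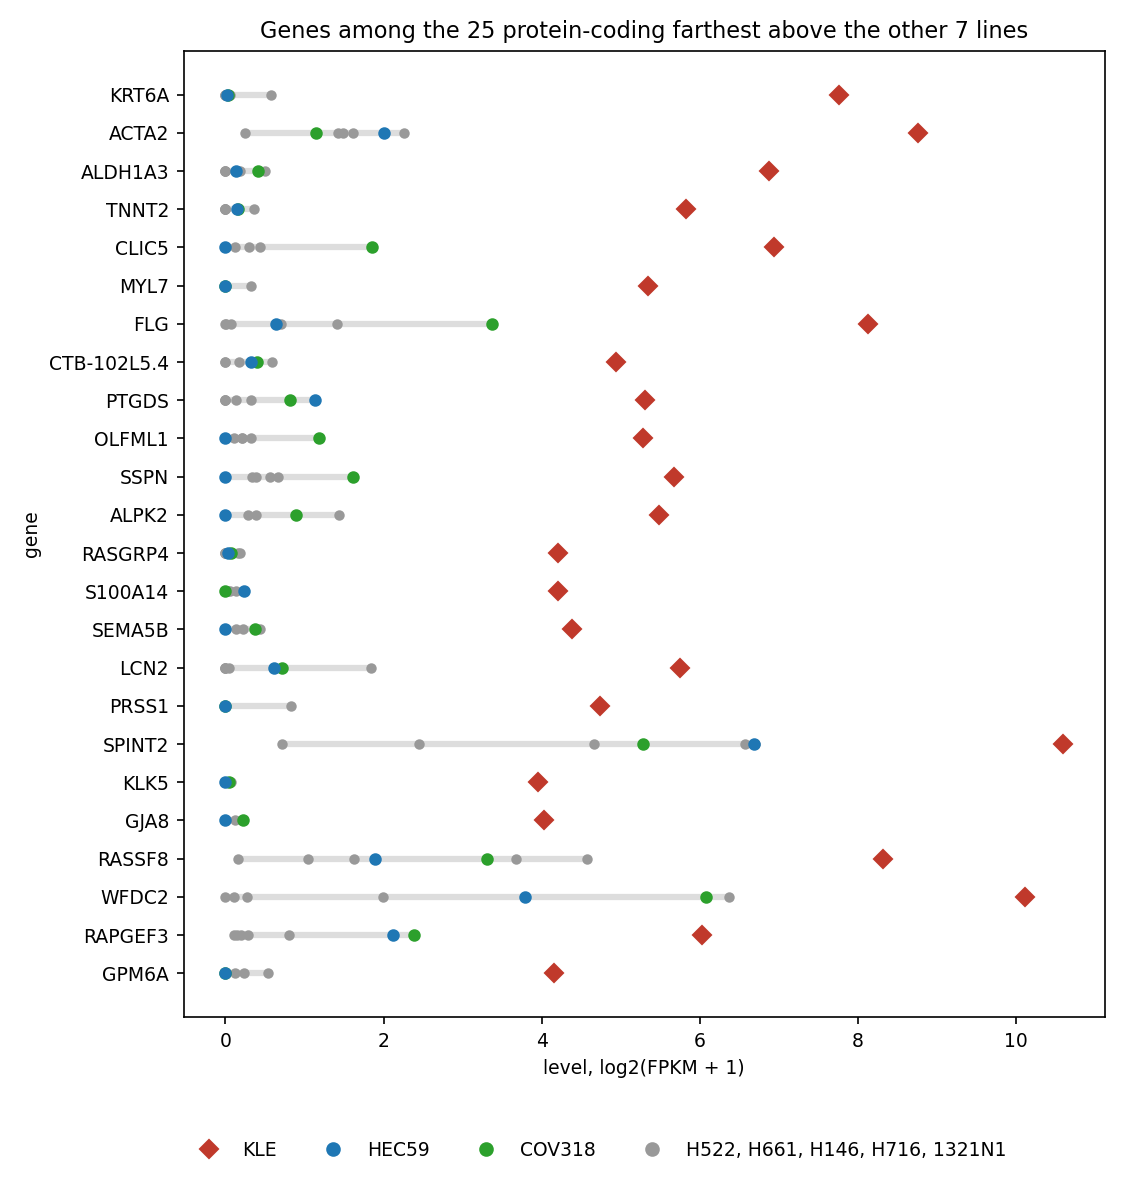
Levels of genes among the 25 protein-coding ones with the largest margins above the other 7 lines, on log2(FPKM + 1), with 1 point per line (KLE as a red diamond, HEC59 in blue, COV318 in green) and a grey bar from the lowest to the highest of the other 7. The margin runs from 7.18 for KRT6A to 3.62 for GPM6A, and the next line is H522 for KRT6A and COV318 for CLIC5.

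The tissue on the label was first checked against genes of the Mullerian duct and endometrium. Of 22 such genes, 17 were past the filter. KLE was the highest line for 6, by a margin of 1 or more for 5 (WFDC2, EMX2, WT1, MSLN and MUC16), and the lowest for 0. Over all protein-coding genes, KLE was highest for 10.8%, by 1 or more for 2.44%, and lowest for 8.71%. Their mean level was 2.95 (log2) in KLE. The other endometrial line, HEC59, had 2.89, and COV318 followed with 2.48. The median difference of the 17 genes from the median of the other lines was 2.21, against 0.00267 for all protein-coding genes.

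WFDC2, which encodes the secreted protein HE4 of Mullerian epithelia, was at 1102 FPKM in KLE. It was at 81.8 in H146, 66.6 in COV318, 12.8 in HEC59, 2.98 in H522 and 0.204 or less in H661, 1321N1 and H716, a margin of 3.74. EMX2, a transcription factor of the urogenital tract, was at 34.8 in KLE, against 14.7 in COV318, 8.72 in HEC59 and 0.311 or less in the other 5. WT1, a factor of the urogenital ridge, was at 28.7 in KLE, and the next lines were H522 at 12.4 and COV318 at 5.47. The surface proteins MSLN (mesothelin) and MUC16 (the CA125 antigen) were at 13.6 and 8.18 in KLE. Their next lines were COV318 at 5.05 for MSLN and HEC59 at 2.97 for MUC16. PAX8 and SOX17, transcription factors of the same tract, were present in KLE at 45.7 and 10.3 but were higher in HEC59 and in COV318. The oestrogen receptor gene ESR1 stayed under 1 FPKM in all 8 lines, at 0.507 in KLE, and 5 members of the list were listed at 0 in KLE. Of the 22 genes, 12 were at 1 FPKM or more in KLE.

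Keratins of simple epithelium set KLE apart from the other lines. KRT18 was at 1331 FPKM in KLE, with 115 in COV318, 61.1 in HEC59 and 7.01 to 37.5 in the other 5, a margin of 3.52. Its partner KRT8 was at 486 in KLE, against 45.2 in HEC59, 40.8 in H146 and 30.6 in H716, a margin of 3.40. KRT19 was at 199 in KLE, with 91.6 in HEC59 and 89.3 in COV318, a margin of 1.11. In these 3 genes all other lines lay below KLE. KRT7 did not follow them and was at 20.9 in KLE and 374 in COV318. KRT8 and KRT18 overlap on opposite strands in GENCODE v29 and have processed pseudogenes, so their values carry the uncertainty of shared reads.

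Keratins of squamous epithelium were also present. Of 15 such genes 8 were past the filter, and 3 of these had passed through KLE alone. KLE was the highest line for 5, by a margin of 1 or more for 4: KRT6A, KRT17, KRT80 and KRT23. The 3 that had passed through KLE alone, KRT6A among them, are highest in KLE by construction. Over all protein-coding genes, KLE was highest for 10.8%, and by 1 or more for 2.44%. KRT17, a keratin of basal and wounded epithelium, was at 29.9 in KLE, 7.94 in COV318 and 1.01 or less in the others. KRT80 was at 54.1 in KLE and 18.9 in COV318. The basal keratins KRT5 and KRT14 were at 1.19 and 0.0674 in KLE, so the squamous set was not complete. The basal squamous regulator TP63 was at 1.90 in KLE, below H661 at 11.3, H146 at 7.15 and 1321N1 at 4.18.

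Among 31 genes of the squamous surface 14 were past the filter, and KLE was the highest line for 5 and listed at 0 for 14 of the 31. KLE was highest for 10.8% of all protein-coding genes. FLG, the gene of filaggrin, which binds keratin filaments in the skin, was at 278 FPKM in KLE. It was at 9.31 in COV318, 1.66 in H522 and 0.629 or less in the other 5 lines, a margin of 4.76. DMKN, which encodes dermokine, a secreted protein of the upper epidermis, was at 195 in KLE, 49.0 in HEC59, 36.0 in COV318, 1.37 in H522 and 0.650 or less in H661, H146, H716 and 1321N1. That gave a margin of 1.97, with both gynaecological lines ahead of the rest. S100A14, a calcium-binding protein of epithelia, was at 17.5 in KLE and at most 0.176 elsewhere. TGM1, which cross-links the envelope, was at 5.41 in KLE and at most 0.829 elsewhere. DSC2, a cadherin of desmosomes, was at 38.8 in KLE and 20.4 in H661, a margin of 0.90. S100A14 and TGM1 had passed the filter through KLE alone, so KLE is highest for both by construction. Without them the mean over the remaining 12 genes was 3.15 (log2) in KLE and 0.54 to 1.96 in the other lines.

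The kallikreins are secreted serine proteases of the skin and of glandular epithelia, with genes side by side on chromosome 19. Of 15, 8 were past the filter, and KLE was the highest line for 4, by 1 or more for KLK5, KLK6 and KLK8. The shares over all protein-coding genes were 10.8% and 2.44%. KLK5 had passed the filter through KLE alone, so its place among the 4 was fixed by the filter. KLK5 was at 14.4 in KLE and at most 0.0453 elsewhere. KLK6 and KLK8 were at 18.6 and 11.6 in KLE, and their next line was HEC59, with 5.17 and 4.32. KLK10 and KLK11 were at 65.2 and 16.6 in KLE, and COV318 was higher for both, at 124 and 28.2. In these 5 genes H661, H716, H146, H522 and 1321N1 had at most 0.353. The protease inhibitors SPINT2 and PI3 (elafin) had margins of 3.90 and 3.25. SPINT2 was at 1540.3 in KLE, 102 in both HEC59 and H146, 94.0 in H661 and 0.646 to 37.9 in the other 4. PI3 was at 114 in KLE, 11.1 in COV318 and 0.431 or less elsewhere.

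**Figure D2:**
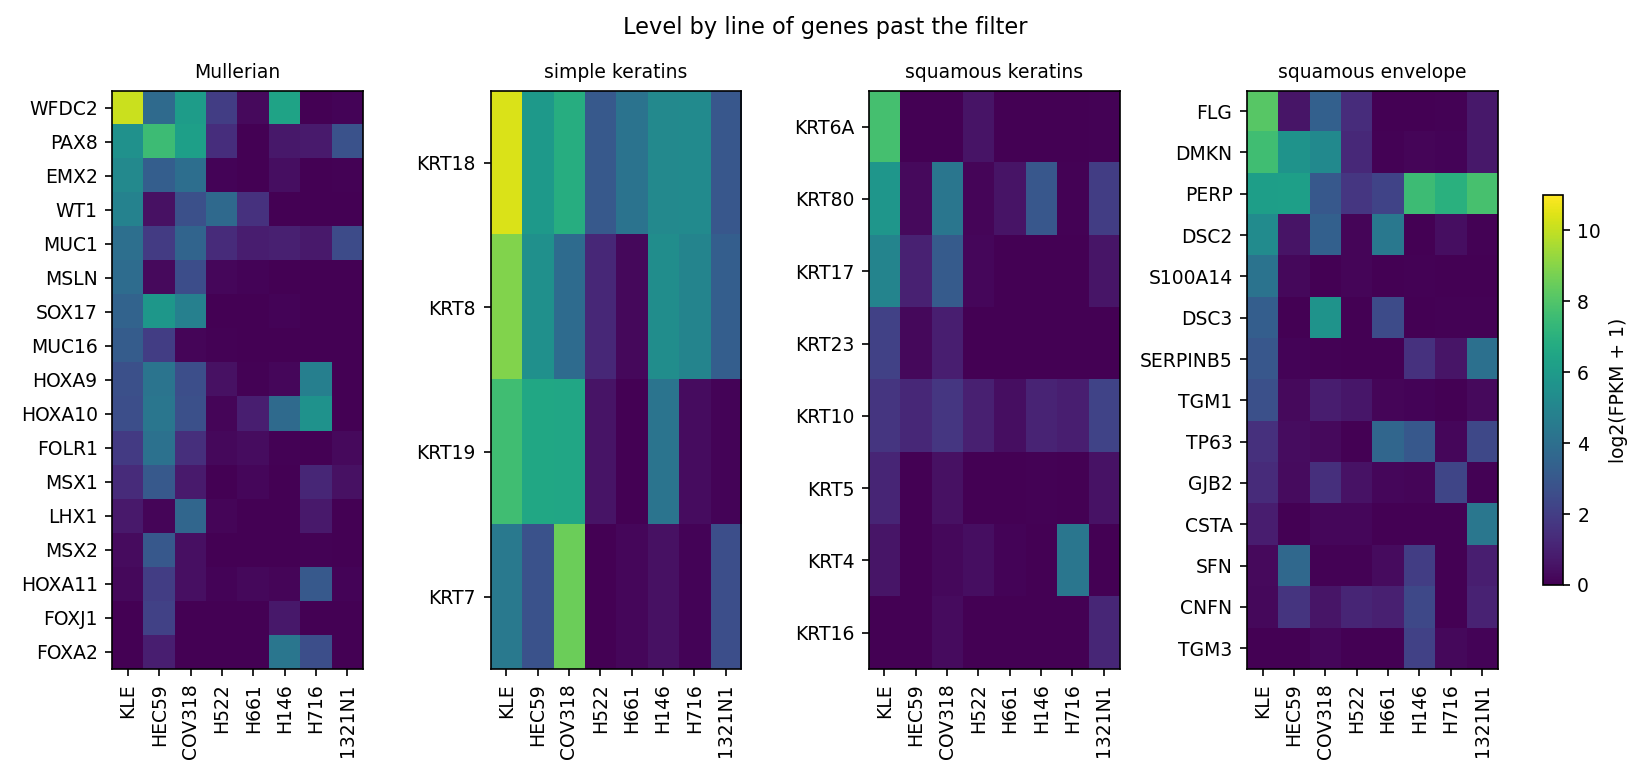
Level of each gene past the filter in 4 lists of epithelial genes (rows) in the 8 lines (columns, KLE at the left), coloured by log2(FPKM + 1). KLE has the brightest cell for WFDC2, KRT18, KRT8, KRT6A and FLG, while PAX8 is brightest in HEC59 and KRT7 in COV318.

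ACTA2, TNNT2 and MYL7, which encode proteins of muscle filaments, were among the genes farthest above. They were picked by margin and belong to no list of muscle genes. ACTA2, the actin of smooth muscle, was at 434 FPKM in KLE. It was at 3.80 in H522, 3.02 in HEC59, 2.04 in H661, 1.80 in H146, 1.68 in 1321N1, 1.22 in COV318 and 0.192 in H716, a margin of 6.50. ACTA2 overlaps FAS on the other strand, and the sources used here do not tell whether strand was used in counting. TNNT2, the troponin T of heart muscle, was at 55.6 in KLE and at most 0.286 in any other line. MYL7, the myosin light chain of the atrium, was at 39.7 in KLE and at 0.249 in H522, and was listed at 0 in the other 6. For TNNT2 and MYL7, KLE was the only line at 1 FPKM or more.

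Other genes with large margins are given singly. ALPK2, an alpha-kinase expressed in heart, was at 43.8 in KLE and at most 1.71 elsewhere. SSPN (sarcospan, a part of the dystrophin complex) was at 50.2 in KLE and at most 2.05 elsewhere. CLIC5, a chloride channel protein bound to the actin cortex, was at 122 in KLE and 2.60 in COV318. ACTN4, an actin cross-linker of non-muscle cells, was at 2127 in KLE and at 43.6 to 176 in the other 7, a margin of 3.59. TAGLN, which is another actin-binding protein of smooth muscle, did not stand apart: it was at 341 in KLE and 470 in COV318.

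The bases before the start sites of 3 of these genes are shown because ACTA2, TNNT2 and MYL7 are all filament genes of muscle with large margins in KLE. Muscle genes are known to carry the CArG box, the site of serum response factor. The search was for CC, 6 bases each A or T, and GG, which reads alike on both strands. Capitals mark stretches that match this with at most 1 base off. Sequences are from RefSeq on GRCh38.p14 and cover 250 bases before a start site, all on the minus strand. The ACTA2 stretch is at chr10:88952774-88953023 and belongs to one of 2 start sites in the table. The TNNT2 stretch is at chr1:201377681-201377930 and MYL7 at chr7:44141333-44141582.
ACTA2: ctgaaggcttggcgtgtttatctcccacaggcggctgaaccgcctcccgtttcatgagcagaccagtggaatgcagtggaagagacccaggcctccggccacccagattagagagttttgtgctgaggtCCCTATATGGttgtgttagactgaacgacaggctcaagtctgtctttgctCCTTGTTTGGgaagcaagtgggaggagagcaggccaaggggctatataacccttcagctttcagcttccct
TNNT2: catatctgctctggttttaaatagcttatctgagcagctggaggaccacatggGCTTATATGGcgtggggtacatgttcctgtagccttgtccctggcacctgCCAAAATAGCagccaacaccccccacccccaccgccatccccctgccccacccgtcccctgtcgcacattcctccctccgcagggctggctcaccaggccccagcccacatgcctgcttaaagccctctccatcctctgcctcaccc
MYL7: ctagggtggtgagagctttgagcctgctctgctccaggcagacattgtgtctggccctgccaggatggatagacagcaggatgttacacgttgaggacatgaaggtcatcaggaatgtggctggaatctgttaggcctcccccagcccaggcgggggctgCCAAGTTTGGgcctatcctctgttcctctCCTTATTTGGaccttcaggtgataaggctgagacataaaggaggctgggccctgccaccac
ACTA2 held 2 stretches with 1 base off, which began 121 and 71 bases before the start site, and its other start site held 0. TNNT2 held 2 with 1 base off, at 197 and 147 bases. MYL7 held 1 full match at 61 bases and 1 stretch with 1 base off at 90. Of all 35116 promoters of this length in the table, 407 (1.16%) held a full match and 5885 (16.8%) a stretch with at most 1 base off. The files measure RNA only, so this is a description of the letters.

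Signalling and secreted genes of inflammation were also among the genes above. Of 25 such genes 24 were found and 17 were past the filter. KLE was the highest line for 4 and by 1 or more for CCL2, LCN2 and CFB. Over all protein-coding genes these shares were 10.8% and 2.44%. CCL2, the chemokine that attracts monocytes, was at 167 FPKM in KLE, 18.6 in COV318 and 0.521 or less in the other 6. LCN2 (lipocalin, an iron-binding protein of inflamed epithelium) was at 52.9 in KLE, 2.59 in H522 and 0.634 or less elsewhere. The complement factor gene CFB was at 11.7 in KLE and 3.66 in H522. IL1R1, a receptor of interleukin 1, is not in the list and was taken from the 341 genes above. It was at 45.2 in KLE and at most 3.80 elsewhere, a margin of 3.27. IL6 and TNF were under 1 FPKM in KLE, at 0.484 and 0.401. The mean of the 17 genes was 2.27 (log2) in KLE and 2.20 in COV318.

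Of 25 genes that answer interferon KLE was highest for 3, a share near the 10.8% of all protein-coding genes, and by 1 or more for 1, against 2.44% of all. That gene was IFITM2, at 77.5 in KLE and 35.3 in COV318. ISG15, MX1 and IFIT1 were at 7.16, 5.70 and 1.64 in KLE, and HEC59 and COV318 were higher for all 3, at 16.2 to 139. In antigen presentation by MHC class I, 14 genes were past the filter. KLE was highest for 3, where the share of all protein-coding genes was 10.8%. These were TAPBP, ERAP1 and TAP2, each by a margin under 1, and none of the class I heavy chains in the list.

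Cadherins join neighbouring cells, and a pair of them stood highest in KLE. CDH1 (E-cadherin) was at 102 FPKM in KLE, 33.1 in HEC59, 26.1 in H146 and 0.888 or less in the other 5. CDH2 (N-cadherin), which is usual in mesenchymal and neural cells, was at 209 in KLE, 96.4 in 1321N1, 85.3 in COV318 and 66.1 in HEC59. KLE was the highest of the 8 lines for both cadherins, by 1.59 and 1.11. Whether single cells of KLE carry both cannot be told from bulk RNA, in which fewer cells of a type and less RNA per cell cannot be told apart.

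Of 30 genes of epithelial junctions 27 were past the filter, and KLE was the highest line for 8, where 10.8% of all protein-coding genes had KLE highest, by 1 or more for 3, among them CDH1 and ITGB4. ITGB4, the integrin of hemidesmosomes, was at 148 in KLE and 44.7 in COV318. The epithelial regulators GRHL2, ESRP2 and ST14 were low in KLE, at 0.165, 0.0745 and listed at 0, and HEC59 had 32.6, 10.5 and 12.7. KLE ranked behind HEC59 on the mean of this list, 3.72 against 3.74 (log2). Of 24 mesenchymal genes 23 were past the filter, and KLE was highest for 3, CDH2, SPARC and ACTA2, a share near the 10.8% of all protein-coding genes. It was lowest for PDGFRA and THY1, each by a margin under 1. On the mean of this list KLE ranked behind 1321N1 and H661, at 3.16 against 4.99 and 3.22 (log2), and the median difference of its genes was 0.12. FN1 (fibronectin) was at 956 in KLE and 1001 in 1321N1, and at most 11.9 in the other 6. VIM (vimentin) was at 238 in KLE, below H716, COV318, H661 and 1321N1, which had 402 to 2100.3, and above H522, HEC59 and H146, which had 0.219 to 193.

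The ERBB family was examined because the lines were chosen for ERBB4. ERBB4 was at 33.8 in KLE and 13.4 to 102 in the others, so KLE did not stand apart for the receptor that all lines share. EGFR was highest in KLE, at 32.4 FPKM. It was at 20.7 in H716, 20.6 in COV318, 16.8 in 1321N1, 11.004 in HEC59, 7.84 in H661, 0.392 in H522 and 0.00692 in H146. The margin was 0.62, so EGFR is not among the 341 genes. ERBB3 was lowest in KLE, at 0.205, next to 0.260 in COV318, a margin of 0.06. Of 11 ligand genes 10 were past the filter. KLE was the highest line for BTC (betacellulin) at 3.25 and NRG3 at 1.35, each by a margin under 1. NRG3 was the 1 ligand gene that had passed the filter through KLE alone, so KLE is highest for it by construction. Of all protein-coding genes, 10.8% had KLE highest. AREG, EREG and EGF were each under 1 in KLE. NRG1 was the most abundant ligand gene in KLE, at 19.2, with H522 at 81.9 and H661 at 45.4. Of 12 regulators of the receptors KLE was highest for 1, a share near the 10.8% of all protein-coding genes. It was the sheddase ADAM10, at 166 in KLE and 118 in COV318.

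ASS1 makes argininosuccinate, the step that lets a cell form arginine from citrulline. It was at 321 FPKM in KLE, 119.9 in 1321N1, 62.2 in COV318, 61.1 in HEC59, 60.8 in H716 and 4.43 to 4.66 in the 3 lung lines, a margin of 1.41. ASL, the enzyme of the next step, did not follow, at 3.33 in KLE and 2.59 to 10.03 in the others. Of 20 genes of arginine metabolism 14 were past the filter, and ASS1 was the one for which KLE was highest. That share is near the 10.8% of all protein-coding genes. KLE was the lowest for OAT (ornithine aminotransferase) and SLC7A1 (the arginine transporter), each by a margin under 1.

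ALDH1A3, which makes retinoic acid from retinal, was at 116 in KLE. It was at 0.420 in H522, 0.325 in COV318, 0.136 in H661 and 0.0982 in HEC59 and was listed at 0 in the other 3, a margin of 6.36. The antisense gene RP11-66B24.4, which overlaps ALDH1A3, was at 82.1 in KLE and at most 1.70 elsewhere, and without strand their reads cannot be told apart. PTGDS, which makes prostaglandin D2, was at 38.6 in KLE and at most 1.19 elsewhere. OLFML1, a secreted olfactomedin-like protein, was at 37.8 in KLE and at most 1.27 elsewhere. LDHB, the lactate dehydrogenase chain of oxidative tissue, was at 1532 in KLE and 254 to 514 in the others, a margin of 1.57. It was the one of 20 glycolysis genes with a margin of 1 or more, where 2.44% of all protein-coding genes had such a margin.

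Genes far below the other lines were fewer. UBE2C, which carries ubiquitin for the anaphase-promoting complex in mitosis, was at 0.374 FPKM in KLE. It was at 48.4 in H522, 66.3 in H661, 77.03 in HEC59, 129 in H716, 133 in H146, 170.3 in COV318 and 257 in 1321N1, a margin of 5.17. HIST1H1B, a linker histone gene, was listed at 0 in KLE and was at 42.9 in HEC59 to 179 in 1321N1. HIST1H2AL, a core histone gene whose ID in the files is not in GENCODE v29, was also at 0 in KLE, with 44.2 in H661 to 331 in 1321N1. In all 3 genes the 7 other lines lay far above KLE.

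The other protein-coding histone genes of that cluster past the filter did not lie below every other line. The set of 19 protein-coding HIST1H genes past the filter was chosen after HIST1H1B was seen. KLE was lowest for 1 of the 19, HIST1H1B itself, and highest for 0. Over all protein-coding genes it was lowest for 8.71% and highest for 10.8%. The median difference of the 19 genes from the median of the other lines was -0.53, against 0.00267 for all protein-coding genes. HIST1H3J was at 1.77 in KLE, with a median of 33.2 and a range of 0.375 to 134 in the others. HIST1H1E was at 480.3 in KLE and 279.8 to 1069 in the others. Histone genes have near-identical copies, so their single values are uncertain.

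RSRC1, a splicing factor with arginine and serine repeats, was at 0.721 in KLE and 17.5 to 50.1 elsewhere, a margin of 3.43. PARVA, the actopaxin of integrin adhesions, was at 0.0754 in KLE and 10.5 to 26.9 elsewhere. MAP2K4, the kinase that activates JNK, was at 0.0696 in KLE and 8.54 in COV318 to 27.6 in H661, a margin of 3.16. ZNF512 was listed at 0 in KLE and was at 6.52 to 15.4 in the others. MEST, a gene expressed from the paternal copy, was at 0.615 in KLE and 8.03 to 223 elsewhere. Of the 43 genes below by 1 or more, 21 were under 1 FPKM in KLE and 6 were listed at 0. An exact 0 in an FPKM file can be a failed estimate, so it says only how the gene is listed.

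**Figure D3:**
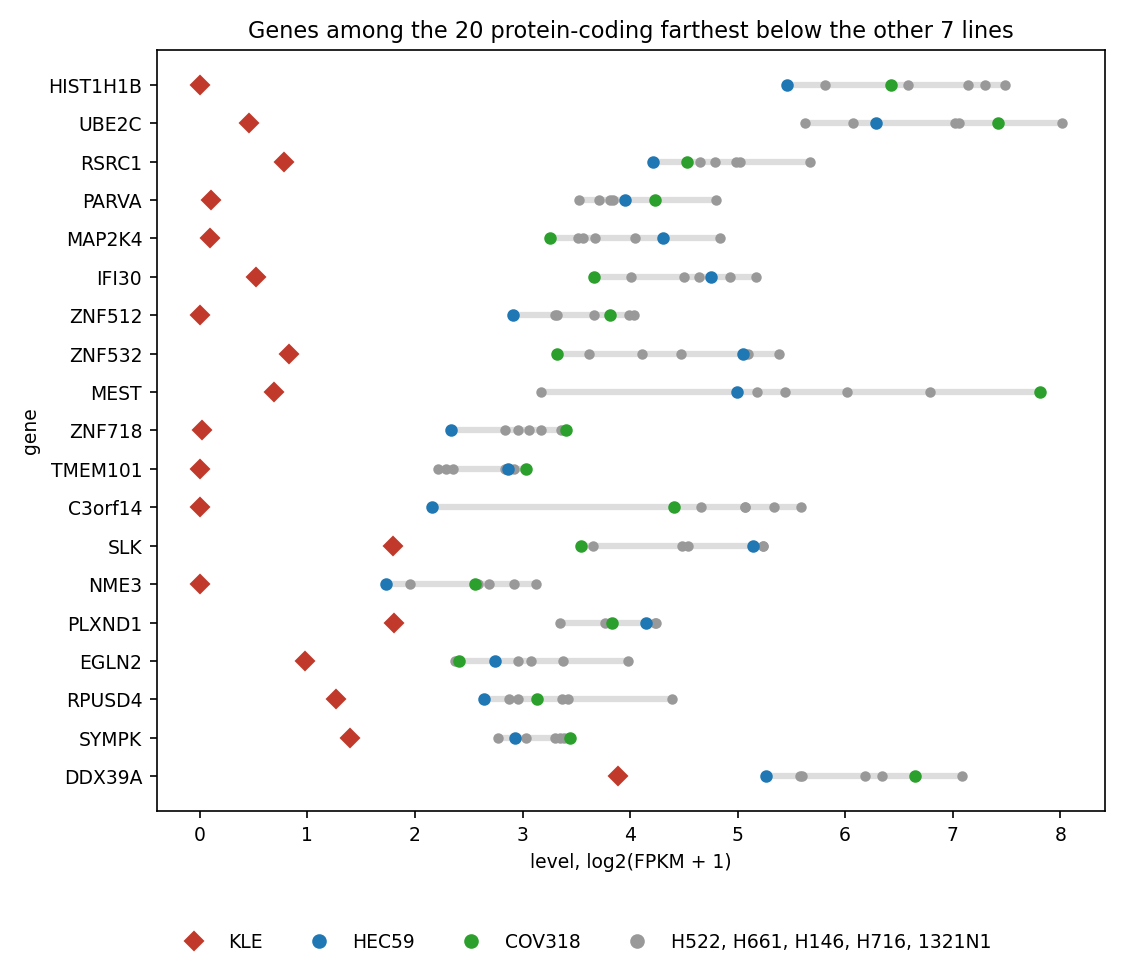
Levels of genes among the 20 protein-coding ones with the largest margins below the other 7 lines, on log2(FPKM + 1), with 1 point per line and a grey bar from the lowest to the highest of the other 7. KLE (red diamond) is at or near 0 for HIST1H1B, UBE2C, PARVA, MAP2K4 and ZNF512, while DDX39A is at 13.8 FPKM in KLE and 37.3 or more elsewhere.

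Proliferation genes were as a list lowest in KLE, with a narrow gap to HEC59. Their mean over 20 genes, all past the filter, was 4.94 (log2) in KLE, against 4.95 in HEC59, and reached 6.07 in 1321N1. KLE was lowest for 6 of the 20, where it was lowest for 8.71% of all protein-coding genes, and by 1 or more for 1, where the share of all was 0.308%. This was AURKB, the mitotic kinase, at 5.80 in KLE and 16.4 to 51.2 elsewhere. The survivin gene BIRC5 was at 11.6 in KLE and 15.7 to 70.3 in the others. The nucleotide enzyme RRM2 was at 58.0 in KLE, 76.8 in HEC59 and 170.4 to 604 in the other 6. CCNB1 and PCNA were not low, at 123 and 59.7 in KLE. PRC1, which bundles the spindle midzone, and the damage histone H2AFX are not in this list. They were taken from the 43 genes below every other line by 1 or more, with margins of 1.02 and 1.23. None of the 20 genes in the list was highest in KLE, where 10.8% of all protein-coding genes had KLE highest.

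**Figure D4:**
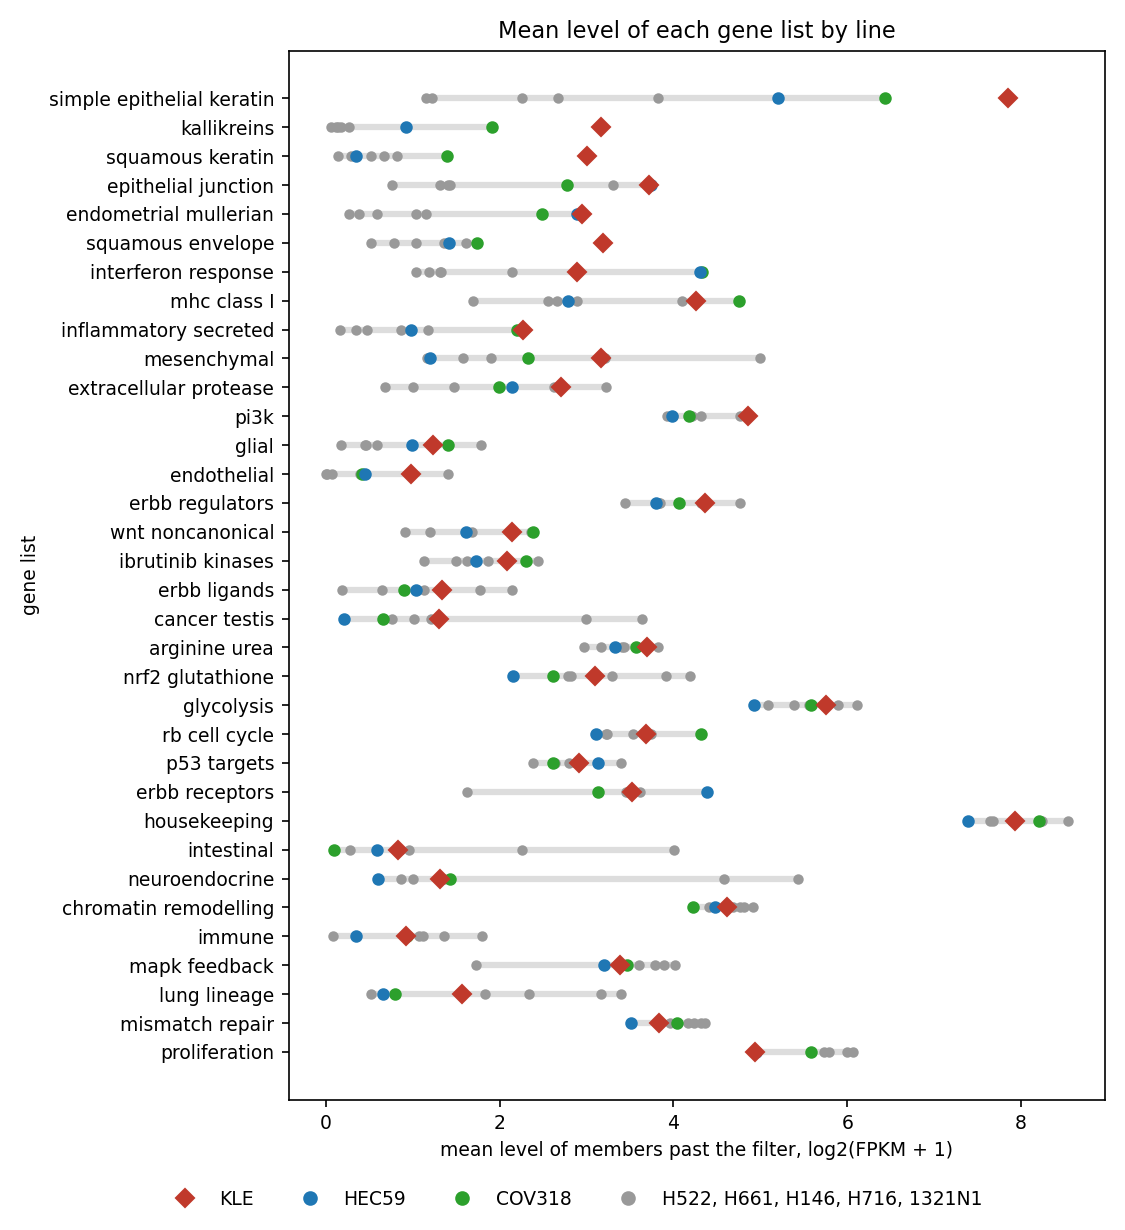
Mean log2(FPKM + 1) of the members past the filter of each of 34 gene lists, with 1 point per line and lists sorted by the distance of KLE (red diamond) from the median of the other 7. KLE has the highest mean for 7 lists, among them the simple and squamous keratins and the kallikreins, and the lowest for proliferation.

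Over the 34 lists, KLE had the highest mean in 7. Of these, the squamous keratin, squamous envelope and kallikrein lists held 3, 2 and 1 members that had passed the filter through KLE alone, and without those members the number of lists was 7 again. The 7 were the Mullerian, squamous keratin, squamous envelope, simple keratin, kallikrein, inflammatory and PI3K lists. For markers of other cell types, in the neuroendocrine, glial, intestinal, lung, immune and endothelial lists, no member lay 1 or more above the other lines. These lists held 3 to 17 genes past the filter, and 2.44% of all protein-coding genes had such a margin. The count of 0 is near that share. The means of those 6 lists were 1.31, 1.24, 0.83, 1.57, 0.93 and 0.98 (log2) in KLE, and the highest of the other lines had 5.43, 1.78, 4.01, 3.40, 1.79 and 1.41. The medians of the other lines were 1.36, 0.58, 0.85, 1.83, 1.07 and 0.39, so KLE lay above the median for the glial and endothelial lists. It ranked second on the endothelial list, with KDR highest in KLE by 0.19. On the glial list it ranked behind H146 and COV318 and above the astrocytoma line 1321N1, which had 0.58. In cell cycle control by RB, KLE was lowest for 1 of 19 genes, CCNE2, and highest for 0. Over all protein-coding genes it was lowest for 8.71% and highest for 10.8%, so these counts do not set the list apart. In the PI3K list the one member above by 1 or more was AKT2, a kinase downstream of growth factor receptors, at 652 in KLE, 185 in H661 and 38.5 to 68.9 in the other 6.

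AKT2, DMKN, SPINT2 and ACTN4 share a stretch of chromosome 19. When protein-coding genes past the filter were put in the order of GENCODE v29, 13 runs of 5 or more neighbours had KLE as the highest line and 5 runs had KLE as the lowest. The runs with KLE highest held 118 genes. Of the 13 runs, 8 lay near each other between CEBPG and MAP3K10 on chromosome 19, a region of 136 genes. This region joins runs at most 30 genes apart, a rule chosen after the runs were seen. KLE was the highest line for 111 of the 136, or 81.6%, where 10.8% of all protein-coding genes had KLE highest. In the rest of the chromosome, 857 genes, the share was 8.17%, and KLE was lowest for 18.1%. The region was built from runs in which KLE was highest, so its share of 81.6% was in part fixed in advance. This holds also for the comparisons of the region with other genes that follow.

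Within the region 58 genes had margins of 1 or more. The region held 0.975% of protein-coding genes and 17.0% of the 341 genes above. The median difference of KLE from the median of the other lines was 1.82 (log2) in the region and -0.18 in the rest of the chromosome. Of the other 7 lines, H661 was the next, with a median of 0.55 above the remaining 6 lines. Genes of unlike function were high together. RPS16, a ribosomal protein, was at 8137 FPKM in KLE, 2695 in COV318 and 627 in H522. FBL (fibrillarin, of the nucleolus) was at 1609 in KLE and 147 to 599 in the others. The kinase PAK4 was at 48.1 in KLE and 2.67 to 10.5 elsewhere. EIF3K, an initiation factor, was at 1196 in KLE and 374 in H661, and PSMD8, of the proteasome, at 743 in KLE and 234 in H661. Of 38 zinc finger genes named ZNF or ZFP in the region, KLE was the highest line for 36.

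Some genes of the region, chosen after their values were seen, did not take part. HNRNPL was at 87.8 in KLE and 59.5 to 113 in the others. FBXO27 was at 11.3 in KLE and 68.4 in H661. AKT2 lies 3 genes past MAP3K10 in this order. The gene copy number of KLE was not measured here, and its part in these values was not tested.

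**Figure D5:**
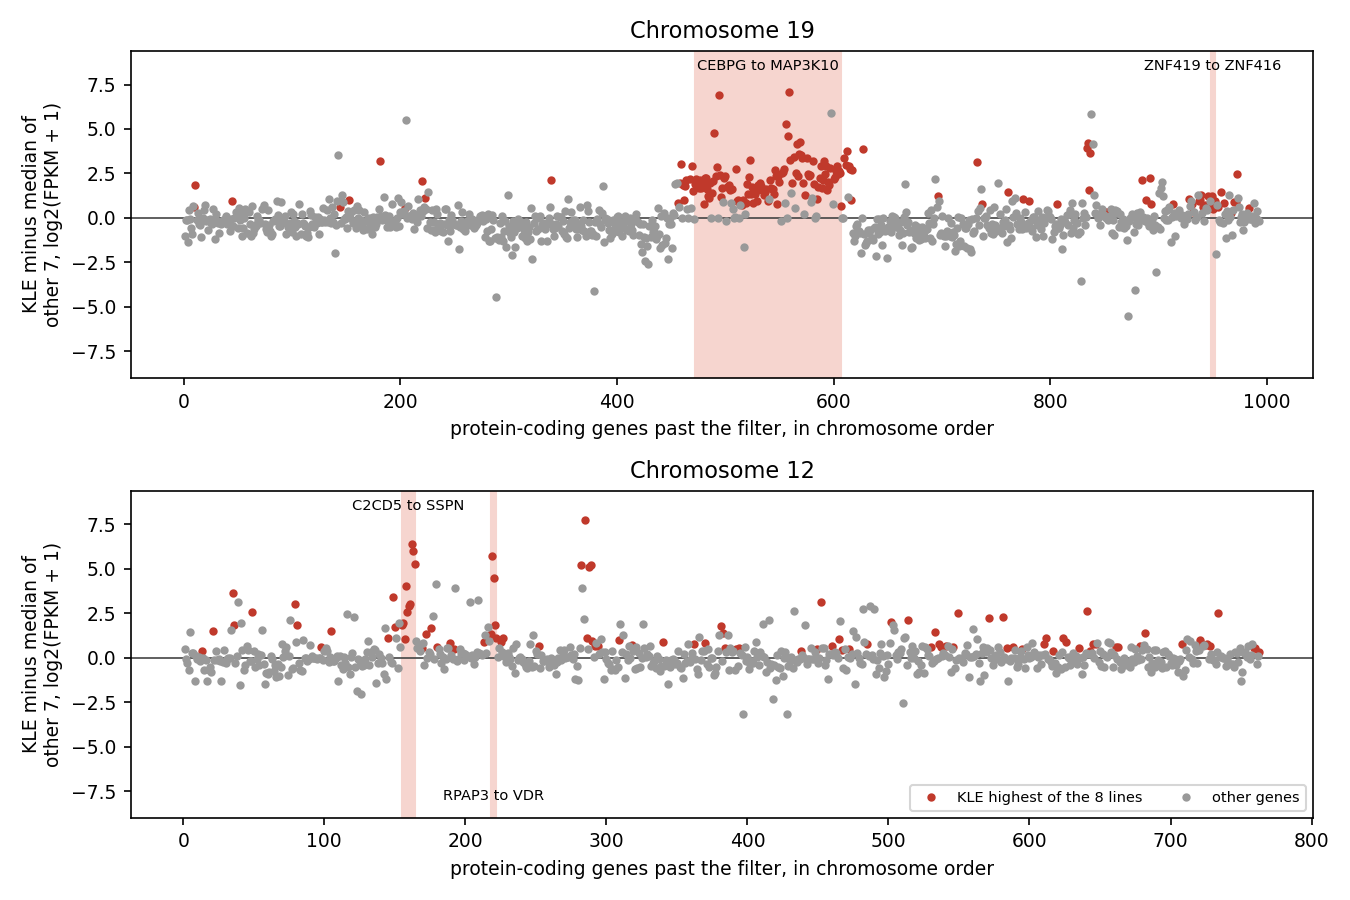
Difference of KLE from the median of the other 7 lines, log2(FPKM + 1), for protein-coding genes past the filter in their order along chromosomes 19 (top) and 12 (bottom), in red where KLE is the highest of the 8 lines. Shading marks joined runs of 5 or more genes with KLE highest. In the region from CEBPG to MAP3K10, 127 of 136 genes lie above 0, with a median of 1.82.

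On chromosome 12 a run of 10 genes from C2CD5 to SSPN had KLE highest throughout, with a median difference of 2.98 and margins of 1 or more for 8. RASSF8, a protein with a RAS association domain, was at 318 in KLE and 22.8 in 1321N1, a margin of 3.75. BCAT1, which transfers amino groups of branched amino acids, was at 431 in KLE and 102 in HEC59. BHLHE41, a clock repressor, was at 64.4 in KLE and 6.71 in 1321N1. SSPN, described above, ends the run. A second run of 5, from RPAP3 to VDR, held RAPGEF3, at 63.9 in KLE and 4.21 in COV318, and SLC48A1, a haem transporter, at 272 in KLE and 38.3 in COV318. SSPN overlaps BHLHE41, and RAPGEF3 overlaps SLC48A1, each on opposite strands, so reads of either pair cannot be told apart without strand.

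Shorter runs lay elsewhere. On chromosome 10, CDH23 to ANAPC16 (7 genes, with SPOCK2 at 252 in KLE and 21.8 in H716) and BTRC to MGEA5 (6 genes) had KLE highest. On chromosome 11, 7 genes from RPUSD4 to ST3GAL4 had KLE lowest, with a median of -1.25. Whole chromosomes differed as well. On chromosome 21 KLE was highest for 26.9% of 134 genes and lowest for 0, with a median difference of 0.69. On chromosome 13 it was highest for 1.58% of 253 genes and lowest for 18.97%. On chromosomes 11 and 15 it was lowest for 18.7% and 19.7%, against 8.71% over all protein-coding genes.

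COV318, the ovarian line, lay nearest to KLE. It was the next line below KLE for 118 of the 341 genes above, or 34.6%, whereas it was the highest of the other 7 for 14.2% of all protein-coding genes. HEC59, of the same tissue as KLE, was next for 48, or 14.1%, against 10.5%. For the 43 genes below, HEC59 was the nearest in 15, or 34.9%, against the 17.4% of all genes for which it was the lowest of the 7. Across the 13954 protein-coding genes Spearman's rho with KLE was 0.872 for COV318, 0.798 for HEC59, 0.796 for H522, 0.791 for H661, 0.783 for 1321N1, 0.741 for H716 and 0.692 for H146. These are descriptions across genes, which are not independent and share each library's depth.

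limma, fitted over all 19207 genes with KLE set against the 7 others, takes the spread from those 7 and assumes that the lone KLE library varies like them. At a Benjamini-Hochberg threshold of 0.05, 90 protein-coding genes (0.645%) were called higher in KLE and 8 (0.0573%) lower. With 1 line left out, the share called higher was 0.411% without H522 to 1.05% without COV318. Of the 90, 70 had passed the filter through KLE alone and so had to be far from the rest. With genes required to reach 1 FPKM in another line, 8 of 13755 (0.0582%) were higher and 3 (0.0218%) lower. Among the 8 were ACTA2, CLIC5, LCN2, SSPN, ALPK2, OLFML1 and PTGDS, and the 3 were HIST1H1B, UBE2C and RSRC1.

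ACTA2 differed by 7.31 (log2, limma SE 0.72), with a limma adjusted p of 0.0252 under that stricter filter, 0.00193 under the first, and 4.2e-05 to 0.120 over all alternatives. CLIC5 differed by 6.56 (SE 0.71; limma adjusted p = 0.00368, 7.2e-05 to 0.133 over alternatives). HIST1H1B differed by -6.60 (SE 0.75; limma adjusted p = 0.00451, 0.00205 to 0.0979), UBE2C by -6.33 (SE 0.81; limma adjusted p = 0.00834, 0.00416 to 0.108) and RSRC1 by -4.06 (SE 0.53; limma adjusted p = 0.00964, 0.00277 to 0.130). The limma fit against H522, H661 and H716 only, lines grouped with KLE in earlier work on these files though not by relative depth, gave the largest p for ACTA2, HIST1H1B, UBE2C and RSRC1. That fit called 0 genes, with 1503 at an unadjusted p under 0.05. The single adjusted p given above for CLIC5, HIST1H1B, UBE2C and RSRC1 is from the limma fit under the first filter, not the stricter one. CLIC5 had its largest p with a pseudocount of 0.1. Against those 3 lines alone KLE lay above by 1 or more for 1078 protein-coding genes and below for 313. The p-values measure how far KLE lay outside the spread between different tumours.

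Genes of other types were led by short RNAs with very high FPKM. RNU6-36, a copy of the U6 spliceosomal RNA, was at 4723 in KLE and listed at 0 in the 7 others, and U6atac was at 308 in KLE and listed at 0 elsewhere. FPKM divides by length, so few fragments give such genes large values. LOC101927023, an antisense RNA, was at 52.2 in KLE and at most 0.321 elsewhere. The value of AC002066.2, above 100000 in KLE and HEC59, was left out.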

How the data were processed

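RNA-seq of 8 untreated cell lines was used, 1 library each. The deposited values are FPKM per gene and line, as named in the file headers, made by the authors. CASAVA 1.4, TopHat2 2.0.8, SAMtools 1.0 and GRCh37 are named in the submitters' processing notes. For the program and annotation behind FPKM, and for strand: not given in the sources used here. Depth in reads is unknown, and relative depth was read from the steps between low FPKM values.

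Values were joined by Ensembl ID and taken as log2(FPKM + 1), with values above 100000 left out and an FPKM of 1 or more required in any line. Gene types and gene order came from GENCODE release 29, which held 82.2% of all IDs and 95.6% of those past the filter. Margins, list means and neighbouring runs were computed in Python 3.11.15 (pandas 2.3.3, numpy 2.4.6, matplotlib 3.10.9). limma 3.58.1 in R 4.3.3, with a mean-variance trend, tested KLE against the 7 other lines over all 19207 genes with Benjamini-Hochberg adjustment at 0.05. With no replicates, a p-value here is set by how much the lines differ. A simulation with the same genes drew every line, KLE included, from normal distributions with the mean and SD of the other 7. Most but not all genes shifted by 4 or 8 (log2) were called, with some false calls. Shifts ran up and down and could give values below 0, which log2(FPKM + 1) cannot. The simulation therefore does not describe genes near 0, and it assumes that KLE varies like the other lines.

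Genes named were KRT6A, DMKN, ASS1 and EGFR, the 25 farthest above and 20 farthest below, limma calls, list members by margin or level, leading non-coding genes and members of runs. List members named for low or unremarkable values were chosen after those values were seen. The members and lists were chosen with earlier results of these data known. Some genes that meet this rule are not reported here. Pseudocounts, filters, scalings and sets of lines were varied.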

Additional observations from a re-analysis of the deposited data

How the results depend on the processing

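The 341 genes above the other lines became 86 with a margin of 2, 186 with a pseudocount of 5, 1078 against H522, H661 and H716 only, and 361 to 504 with 1 line left out. The 43 below became 13 with a margin of 2, 121 and 12 with pseudocounts of 0.1 and 5, 313 against those 3 lines, and 50 to 77 with 1 line left out, the 77 without HEC59. As a share of the genes tested, limma calls higher in KLE (0.645%, 90 genes) became 0.896% over all gene types, 0.122% and 1.15% with pseudocounts of 0.1 and 5, 0.0582% with 1 FPKM required in another line, 0.109% with 5 FPKM in any line, 2.34% without that filter, 0% against the 3 lines, and 0.411% (without H522) to 1.05% (without COV318) with 1 line left out. Calls lower in KLE (0.0573%, 8 genes) became 0.0215% with a pseudocount of 5, 0.0218% with 1 FPKM required in another line, 0% against the 3 lines, and 0.0432% to 0.0579% with 1 line left out. The counts ranged over these settings from 0 to 416 higher and 0 to 11 lower. Lists with the highest mean in KLE, 7, became 14 against the 3 lines and 7 to 9 with 1 line left out. Genes in runs, 118, became 395 against the 3 lines and 122 to 164 with 1 line left out. The share of genes above that had COV318 next was 36.0 to 39.8% with another line left out. These list, run and nearest-line alternatives were chosen after seeing the data. Of 213 margins recomputed, 3 changed sign: PSAP (-0.19 with upper-quartile scaling, -0.46 with quantile normalization), DLL3 (-0.11 and -0.058) and STARD5 (-0.061 with quantile normalization). The cause was not tested in any of these. Fewer lines or fewer genes tested are part of several settings by construction. No paired analysis was possible because each line has 1 library and the labels give no shared replicate numbers. With unknown depth, low FPKM values have no counting interval.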
